A study of Mus musculus with 6 samples.

Results

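The kinesin, cytoplasmic dynein, dynactin and kinesin light chain genes were examined in bulk RNA-seq of mouse L4/5 DRG. Dorsal root ganglia (DRG) lie along the spinal cord and house the cell bodies of sensory neurons. Members were taken by gene symbol, as those that begin with Kif and a digit, Dync, Dctn1 to Dctn6 or Klc1 to Klc4, without pseudogenes. This gave 56 of the 48401 listed symbols, of which 55 are protein-coding genes and 1, Kif16bos, is an antisense RNA. The tissue came from male C57BL/6J mice aged 8 weeks injected intrathecally with siRNA, that is, into the fluid that bathes the spinal cord. The 3 siCLAP libraries came from mice given siRNA against the long intergenic noncoding RNA CLAP, and the 3 siNC libraries from mice given siNC, taken here as the control siRNA. No listed symbol is CLAP, so its knockdown was not checked. The labels do not say whether each library is 1 mouse, so the tests measure the spread between these libraries, which may be technical.

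Sensory neurons carry cargo over very long axons on microtubules. Most kinesins are motors that walk towards the microtubule plus end, which in axons points to the nerve terminal, while cytoplasmic dynein 1 walks the other way, towards the cell body, and works with the dynactin complex. Other members of the same families do not carry axonal cargo. Some serve the cilium, some separate chromosomes in dividing cells, and some control microtubule length.

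Total expected counts were between 25982046 and 39239131 in the siCLAP libraries, and between 21386768 and 46317735 in the siNC libraries. Members with a count above 0 numbered 53 or 54 in every library. Levels are given as TPM (transcript abundance scaled to gene length and to the library total), and differences as log2 fold changes of siCLAP over siNC fitted to the counts by edgeR. Of the 56 members, 44 had a mean of at least 1 TPM over the 6 libraries and were tested. In 2 libraries, 1 of each group, 8 genes induced by interferon summed to higher TPM than elsewhere, at 767 TPM in siCLAP-2 and 727 TPM in siNC-3, against 444 to 482 TPM in the other libraries.

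Motor transcripts were abundant in the ganglia. Together the members made up 0.858%, 0.850% and 0.868% of all TPM in siCLAP libraries 1 to 3, against 0.908%, 0.874% and 0.882% in siNC libraries 1 to 3. All siCLAP values lay below all siNC values. This sum is weighted by the abundant members, and of 44 tested members 23 had a negative and 21 a positive log2 fold change. Mean levels in siCLAP and siNC were 525 and 631 TPM for Kif1a, and 755 and 827 TPM for Kif5a. They were 316 and 365 TPM for Dync1h1, 481 and 519 TPM for Kif21a, and 1933 and 1923 TPM for Klc1. The part of gene length, taken up further on, was not tested for this sum. Of the members, 21 had a mean of at least 100 TPM and held 94.9% of the summed level, 11 lay between 10 and 100 TPM, 12 between 1 and 10 TPM, and 12 below 1 TPM. Klc1 alone held 22.1% of the sum and ranked at place 41 among all 48401 symbols. The 5 highest members (Klc1, Kif5a, Kif1a, Kif21a and Dctn1) held 49.1%. The well expressed members varied little between libraries, with a median coefficient of variation over all 6 of 3.75% in the class of at least 100 TPM.

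**Figure D1:**
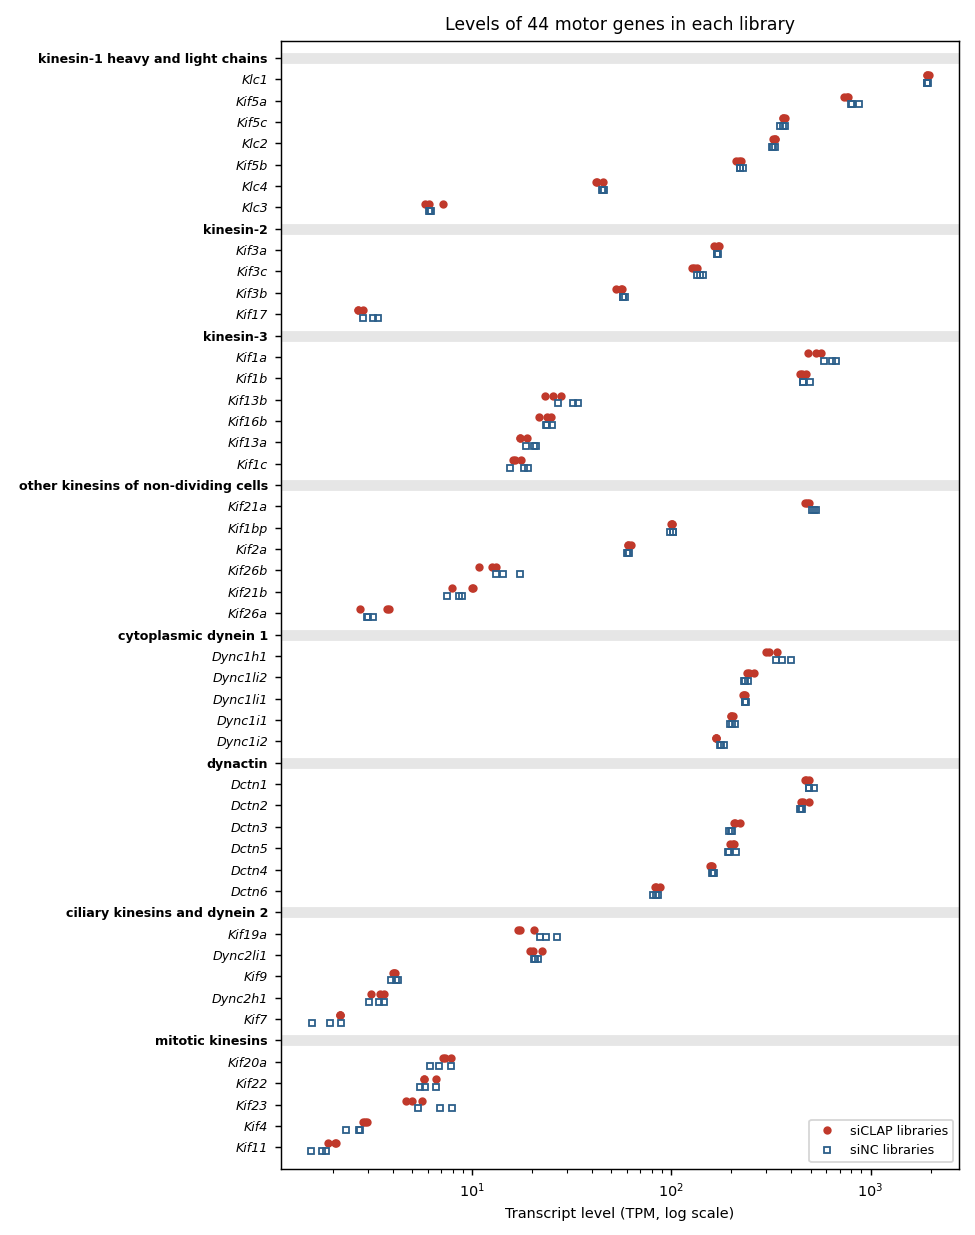
Transcript level (TPM, log scale) of the 44 tested members in each of the 3 siCLAP libraries (red circles, upper) and the 3 siNC libraries (blue open squares, lower), grouped by role. Levels span from 1955 TPM for Klc1 in siCLAP-2 to 1.565 TPM for Kif11 in siNC-2, and for most members the points of both groups lie close together.

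The comparison of siCLAP with siNC asks which transcripts differ after injection of siRNA against CLAP. In it, 0 of the 44 tested members passed at an adjusted p under 0.05. Over all 19141 tested genes 0.293% passed. The median log2 fold change was −0.00216 over the members and −0.00178 over all tested genes. At an unadjusted p under 0.05, 9 members were lower in siCLAP (20.5%), against 8.75% of all tested genes, and 1 was higher (2.27%), against 8.22%. In 7 members (15.9%) every siCLAP library had a lower TPM than every siNC library, against 12.2% of all tested genes, and in 3 (6.82%) every one was higher, against 9.39%. For 25 of the 44 members the 95% interval of the fitted difference lay within 15% of no change in both directions. DESeq2 called 3 members lower in siCLAP (Kif1a, Kif19a and Dync1h1), and 3.19% of all tested genes in either direction. edgeR without a TPM filter called 5 of 55 members, these 3 with Kif13b and Kif26b, and 2.75% of all genes. Without siCLAP-2 and siNC-3, the libraries high in interferon genes, 0 members passed, on 2 libraries a group. At an unadjusted p under 0.05, 3 of the 44 were then lower (6.82%), against 4.45% of all tested genes, and 2 of the 44 higher, against 3.65%. Without siCLAP-3 1 member passed (Kif19a), and 1.75% of all tested genes. Without siNC-1, 3 of the 44 members were lower (6.82%) and 1 higher (2.27%) at an unadjusted p under 0.05. Of all tested genes 7.02% were then lower and 6.23% higher.

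**Figure D2:**
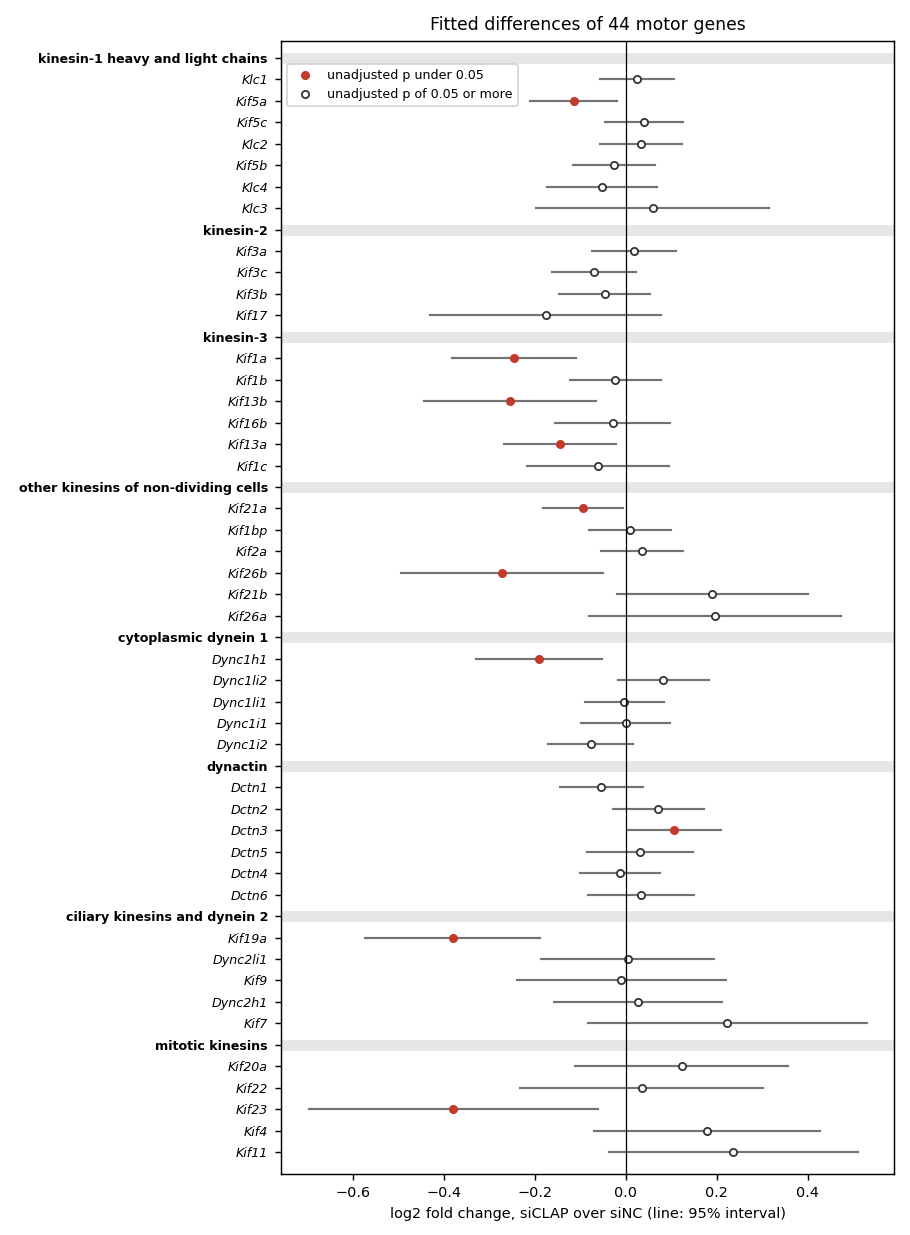
Fitted log2 fold change of siCLAP over siNC for the 44 tested members, grouped by role, with 95% intervals (lines). Filled points have an unadjusted p under 0.05 (9 lower and 1 higher in siCLAP), and 0 members passed at an adjusted p under 0.05.

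Kinesin-1, the main motor for organelles and vesicles in axons, is built from Kif5 heavy chains and Klc light chains that bind cargo. Klc1, the most abundant member, had 1915, 1955 and 1930.0 TPM in siCLAP-1 to siCLAP-3, against 1938, 1919.7 and 1912 TPM in siNC-1 to siNC-3. The groups overlapped, and the fitted difference was 0.02 ± 0.04 (log2, SE) with a 95% interval from −0.06 to 0.11 (adjusted p = 0.783). Klc2 averaged 328 ± 5.20 and 324 ± 5.62 TPM in siCLAP and siNC (SD, n = 3 each). Klc4 averaged 43.2 ± 1.95 and 45.4 ± 0.503 TPM, and Klc3 6.34 ± 0.687 and 6.14 ± 0.0802 TPM. Klc3 shares 28.1% of its exonic bases with Ercc2 on the opposite strand. The library kit does not mark strand, so reads within the shared bases cannot be told apart, and the Klc3 level is uncertain to that extent.

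Kif5a, a neuronal heavy chain, had 766, 734 and 765 TPM in the siCLAP libraries, against 871, 799 and 811 TPM in the siNC libraries. All siCLAP values were the lower ones, at a fitted log2 difference of −0.12 ± 0.04 that did not pass (adjusted p = 0.214). Kif5c, the other neuronal heavy chain, averaged 368 ± 4.79 TPM in siCLAP and 362 ± 11.8 TPM in siNC, and Kif5b, the heavy chain found in most tissues, 217 ± 6.20 and 224 ± 4.48 TPM. Kif5a held 56.4%, 55.5% and 57.0% of the summed Kif5 level in siCLAP, against 59.5%, 58.4% and 57.7% in siNC. Kif5c held 27.5%, 27.6% and 27.3% in siCLAP, against 25.4%, 25.5% and 26.0% in siNC. Neither share overlapped between the groups. With 3 libraries against 3 an exact permutation test cannot give a p below 0.1, which both shares had (0.2 when adjusted over 10 ratios). The 10 ratios between members were chosen after the members' values were seen.

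Kinesin-2 motors work in axons and in cilia. Kif3a, a partner of both Kif3b and Kif3c in this motor, had 172, 164 and 173 TPM in siCLAP, against 169, 171 and 169 TPM in siNC, so its groups overlapped (log2 fold change 0.02 ± 0.04, 95% interval −0.08 to 0.11). Kif3c had 131, 128 and 135 TPM in siCLAP, against 144, 135 and 139 TPM in siNC, at −0.07 ± 0.04 (adjusted p = 0.414), with overlap at siCLAP-3 and siNC-2. Exons of Kif3c share 40.7% of their bases with antisense genes, so its level is likewise uncertain. For Klc2, Kif1bp and Dctn6 this share is 10.6%, 10.1% and 11.8%. Kif3b averaged 55.2 ± 2.16 and 57.5 ± 0.705 TPM, and Kif17, which acts as a homodimer, 2.73 ± 0.0970 and 3.14 ± 0.274 TPM. Of the 4 tested members 3 had a negative estimate.

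All 6 tested kinesin-3 genes had a negative estimate, with a median log2 fold change of −0.10, and 0 passed. Over all tested genes 50.51% were negative. With the trend with gene length removed, described further on, 4 of the 6 were negative, and Kif1b and Kif16b stood at 0.03 and 0.01. Without siNC-1 Kif1b was positive, and without siCLAP-2 Kif16b was. Kif1a, which carries precursors of synaptic vesicles and dense-core vesicles, had 530.2, 483 and 563 TPM in siCLAP, against 674, 581 and 637 TPM in siNC. The groups did not overlap, siCLAP-2 being lowest and siNC-1 highest. Its log2 fold change was −0.25 ± 0.06 with a 95% interval from −0.38 to −0.11 (adjusted p = 0.0966 in edgeR's test and 0.00494 in DESeq2, with 0.00494 to 0.529 over the 18 alternatives). Without siCLAP-2 and siNC-3 the estimate was −0.18.

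Kif1a lies on the minus strand of chromosome 1, at 93015464 to 93101951 in mm10, and spans 9330 exonic bases in GENCODE M21. Kif1b, its close relative that carries mitochondria and synaptic vesicle precursors, had 455, 443 and 477 TPM in siCLAP, against 498, 456 and 461 TPM in siNC, with overlapping groups (−0.02 ± 0.05). The ratio of Kif1a to Kif1b was 1.16, 1.09 and 1.18 in siCLAP, against 1.35, 1.28 and 1.38 in siNC, with no overlap. Kif1a was thus the higher of the pair in every library. This ratio was 1 of the 10 chosen after the values were seen. Its exact permutation p was 0.1, and 0.2 when adjusted over the 10 ratios.

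Kif13b, a kinesin-3 that moves vesicles in neurons and other cells, had 25.6, 23.3 and 28.0 TPM in siCLAP, against 34.2, 26.9 and 32.1 TPM in siNC. Here siNC-2 lay below siCLAP-3 (log2 fold change −0.25 ± 0.09, adjusted p = 0.174). Kif13a, which transports vesicles from the trans-Golgi network, had 17.5, 17.4 and 18.9 TPM in siCLAP, against 21.0, 18.8 and 20.4 TPM in siNC, and siNC-2 again lay just below siCLAP-3 (−0.15 ± 0.06, adjusted p = 0.228). Kif16b, a motor of early endosomes, averaged 23.4 ± 1.56 and 24.2 ± 0.839 TPM in siCLAP and siNC, and Kif1c 16.7 ± 0.747 and 17.7 ± 1.86 TPM.

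Among other kinesins of non-dividing cells, Kif21a, a kinesin that restrains microtubule growth, was the most abundant, at 483, 467 and 492 TPM in siCLAP, against 532, 507 and 518 TPM in siNC. The groups did not overlap, at a log2 fold change of −0.10 ± 0.04 (adjusted p = 0.261). Its relative Kif21b averaged 9.35 ± 1.24 TPM in siCLAP and 8.34 ± 0.744 TPM in siNC, and stood at 0.19 ± 0.10. Kif26b, a kinesin with an atypical motor domain, had 12.7, 10.8 and 13.2 TPM in siCLAP, against 17.5, 13.2 and 14.3 TPM in siNC. The groups met at siCLAP-3 and siNC-2 (−0.27 ± 0.10, adjusted p = 0.210), and without siNC-1 the estimate was −0.15. Its relative Kif26a stood at 0.20 ± 0.13. Kif2a, which takes microtubules apart, averaged 61.6 ± 1.18 and 60.8 ± 0.781 TPM, with 19.2% of its exonic bases shared with the antisense neighbour Dimt1. Kif1bp, a kinesin-binding protein and not itself a motor, had 100.4, 101 and 99.6 TPM in siCLAP, against 102, 98.1 and 102 TPM in siNC (0.01 ± 0.04).

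Cytoplasmic dynein 1 is assembled from heavy, intermediate and light intermediate chains. The heavy chain Dync1h1, which holds the motor, had 309, 300.1 and 339.5 TPM in siCLAP, against 401, 337 and 358 TPM in siNC. The groups overlapped by siNC-2 and siCLAP-3, and the log2 fold change of −0.19 ± 0.06 did not pass (95% interval −0.33 to −0.05, adjusted p = 0.166 in edgeR's test and 0.0460 in DESeq2, with 0.0384 to 0.612 over the 18 alternatives). Without siNC-1 it was −0.12. The gene lies on the plus strand of chromosome 12 at 110601452 to 110666945 (mm10), with 15658 exonic bases.

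The other 4 dynein 1 chains had estimates from −0.08 to 0.08. Dync1li2, a light intermediate chain that binds cargo adaptors, had 245, 259 and 241 TPM in siCLAP, against 233, 244 and 234 TPM in siNC (0.08 ± 0.05, groups overlapping at siCLAP-3 and siNC-2, and 0.04 without siCLAP-2 and siNC-3). Dync1li1 averaged 233 ± 3.02 and 236 ± 1.13 TPM. The intermediate chain Dync1i1 averaged 201 ± 2.54 and 203 ± 6.30 TPM in siCLAP and siNC, with a 95% interval of its log2 fold change from −0.10 to 0.10. The intermediate chain Dync1i2 averaged 168 ± 0.937 and 179 ± 5.04 TPM, at −0.08 ± 0.04 (adjusted p = 0.382). The ratio of Dync1h1 to both light intermediate chains summed was 0.647, 0.614 and 0.712 in siCLAP, against 0.857, 0.700 and 0.763 in siNC, overlapping at siCLAP-3 and siNC-2.

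Dynactin links dynein to cargo and to the microtubule. Its 6 members stayed close to no difference, with a median log2 fold change of 0.03 and estimates from −0.05 to 0.11. Dctn1, the large arm subunit that binds dynein, had 474, 467 and 489 TPM in siCLAP, against 520.2, 490.1 and 491 TPM in siNC. All siCLAP values were lower, by little (−0.05 ± 0.04, adjusted p = 0.534). Dctn2, or dynamitin, had 461, 489 and 448 TPM in siCLAP, against 443, 455 and 446 TPM in siNC, and the groups overlapped (0.07 ± 0.05, and 0.03 without siCLAP-2 and siNC-3).

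Dctn3, the smallest subunit of the dynactin shoulder, was the 1 member with an unadjusted p under 0.05 that was higher in siCLAP. It had 220.4, 206 and 209 TPM in siCLAP, against 201, 196 and 200.5 TPM in siNC, with no overlap (0.11 ± 0.05, adjusted p = 0.273). Without siCLAP-1, its highest library, the estimate was 0.07 and the unadjusted p was above 0.05. Dctn4, Dctn5 and Dctn6, of the complex at the pointed end of dynactin, averaged 159 ± 1.69, 203 ± 5.28 and 84.8 ± 3.07 TPM in siCLAP. In siNC they averaged 162 ± 1.82, 200.2 ± 10.5 and 83.7 ± 2.46 TPM.

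The smallest unadjusted p among the members belonged to Kif19a, a kinesin that in mouse trims cilia by removing tubulin at their tips. Its level was 17.4, 17.0 and 20.4 TPM in siCLAP, against 26.9, 21.9 and 23.4 TPM in siNC. No siCLAP value reached the siNC range, and the log2 fold change was −0.38 ± 0.09 with a 95% interval from −0.57 to −0.19 (adjusted p = 0.0828 in edgeR's test, 0.00643 in DESeq2, and 0.00214 to 0.382 over the 18 alternatives). In edgeR's test without siCLAP-3, the siCLAP library with the highest level, the adjusted p was 0.0359. Kif19a lies on the plus strand of chromosome 11 at 114765388 to 114790739 (mm10), and none of its 4068 exonic bases is shared with another annotated gene.

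Among the other ciliary members, the dynein 2 chain Dync2li1, of the motor that returns cargo from the cilium tip, had 20.3, 22.3 and 19.5 TPM in siCLAP, against 20.6, 20.5 and 21.5 TPM in siNC, with a 95% interval from −0.19 to 0.20. Its heavy chain Dync2h1 averaged 3.39 ± 0.252 and 3.35 ± 0.298 TPM, and Kif9, of motile flagella, 4.06 ± 0.0292 and 4.11 ± 0.158 TPM. Kif7, a regulator of Hedgehog signalling at the cilium tip, averaged 2.18 ± 0.00607 TPM in siCLAP and 1.91 ± 0.313 TPM in siNC, with 20.3% of its exonic bases shared with genes on the opposite strand. Kif6, Kif24 and Kif27 averaged less than 1 TPM in both groups and were not tested.

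Among 7 genes of motile ciliated cells, 3 passed the TPM filter, and the axonemal dyneins Dnah5, Dnah9 and Dnah11 and the gene Tekt1 stayed below 1 TPM in all 6 libraries. The summed level of the list was 47.5 to 49.5 TPM in siCLAP and 48.7 to 52.2 TPM in siNC. Foxj1 averaged 26.9 and 28.2 TPM. The part of such cells in the Kif19a result was not tested.

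Mitotic kinesins were low, and 7 of the 12 did not reach 1 TPM. Kif23, which builds the central spindle during cell division, had 4.65, 5.63 and 4.98 TPM in siCLAP, against 5.33, 6.89 and 7.92 TPM in siNC. The groups overlapped at siNC-1 (−0.38 ± 0.14, adjusted p = 0.220), on expected counts between 193 and 419.5 per library. Kif20a, a kinesin of cytokinesis, had 7.86, 7.13 and 7.30 TPM in siCLAP, against 6.13, 6.84 and 7.89 TPM in siNC (0.12 ± 0.11). Its estimate was 0.04 without siNC-1, 0.20 without siNC-3 and 0.24 without siCLAP-2 and siNC-3, and 29.3% of its exonic bases are shared with the antisense neighbour Cdc23. Kif22, which pushes chromosome arms, had 6.60, 5.73 and 5.74 TPM in siCLAP, against 6.59, 5.80 and 5.51 TPM in siNC, with overlapping groups. Kif4, a kinesin of chromosomes and the spindle midzone, averaged 2.91 ± 0.0673 and 2.59 ± 0.223 TPM, with 15.1% of its exonic bases shared with the antisense neighbour Pdzd11. Kif11, which keeps spindle poles apart, averaged 2.01 ± 0.0979 and 1.73 ± 0.152 TPM. In Kif4 and Kif11 every siCLAP value was the higher one, and neither passed (adjusted p = 0.445 and 0.360).

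The 8 listed genes of proliferating cells were all below the TPM filter. Their summed level was 2.68 to 5.72 TPM in siCLAP and 3.19 to 5.44 TPM in siNC. Kif2c, Kif14, Kif15, Kif18a, Kif18b and Kif20b averaged less than 1 TPM, as did Kif12. Kif2b had a count of 0 in all 6 libraries, where a floor of 3 counts corresponds to between 0.0648 CPM (counts scaled to the library total) in siNC-2 and 0.140 CPM in siNC-3. Kif16bos had 2 counts in siNC-2 and 0 elsewhere. Of the 12 members under 1 TPM, 11 could be fitted by edgeR without a TPM filter and 7 with edgeR's own filter on counts, and 0 passed in either. Kif14, at 0.0680, 0.0170 and 0.0504 TPM in siCLAP, against 0.111, 0.0899 and 0.0702 TPM in siNC, did not overlap between the groups (adjusted p = 0.484 without a TPM filter), on 1.5 to 14 expected counts per library. It was named after its values were seen.

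**Figure D3:**
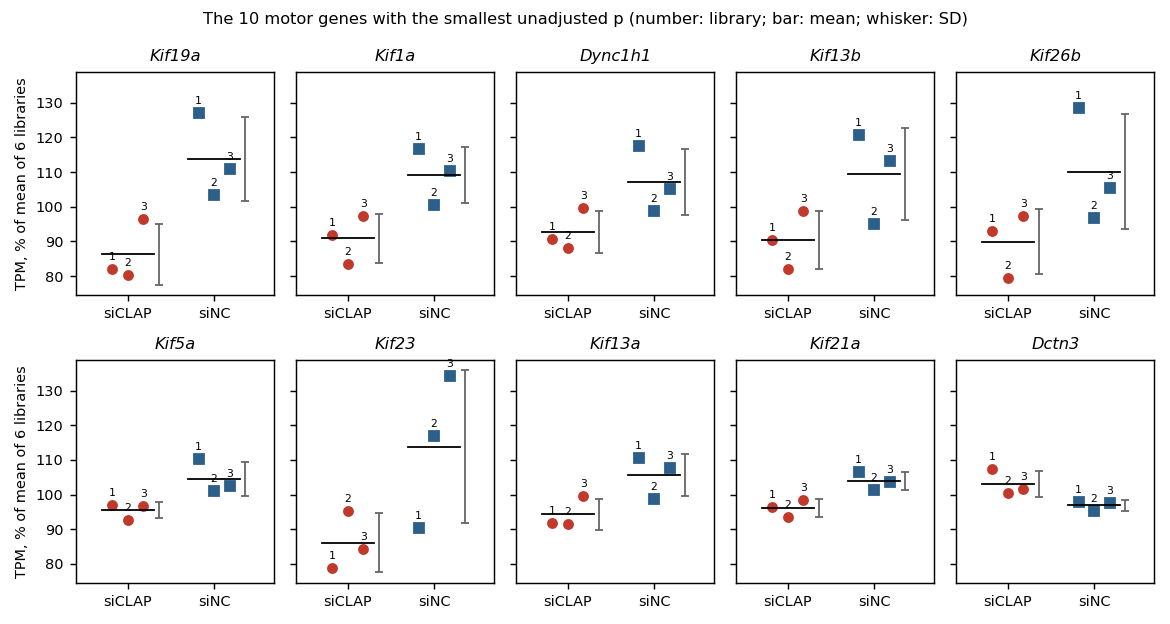
TPM in each library as a percentage of the mean of all 6, for the 10 members with the smallest unadjusted p (siCLAP left, siNC right, numbers are library numbers, bars are means, whiskers are SDs, n = 3). siCLAP-3 is the highest siCLAP library in Kif19a, Kif1a, Dync1h1, Kif13b, Kif26b, Kif13a and Kif21a, siNC-2 is the lowest siNC library in all but Kif23, and Dctn3 is the 1 member of the 10 that is higher in siCLAP.

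Across the 44 tested members the extremes were unevenly spread over the libraries. The lowest TPM was in siCLAP-2 for 15 members and in siCLAP-3 for 3, and the highest was in siNC-1 for 15 and in siCLAP-3 for 3. The deposited counts and TPM together imply a relative gene length, and the members were sorted by it. Of the 9 members that were lower in siCLAP at an unadjusted p under 0.05, Kif1a, Dync1h1, Kif5a, Kif13a, Kif21a and Kif26b were among the 14 longest, and Kif13b, Kif19a and Kif23 among the 16 in between. The 14 longest members had a median log2 fold change of −0.07 with 10 negative estimates (71.4%), and the 14 shortest had 0.03 with 4 negative (28.6%). By library, the median log2 deviation of the 14 longest from their mean over the 6 libraries was −0.0333, −0.113 and 0.00846 in siCLAP-1 to siCLAP-3, against 0.0745, 0.000951 and 0.0239 in siNC-1 to siNC-3. The lowest was siCLAP-2 and the highest siNC-1, and siCLAP-3 lay above siNC-2.

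Over all tested genes of those lengths the medians had the same signs. The median was −0.04 over the 1629 tested genes in the length range of the 14 longest members or above it (64.2% negative), and 0.02 over the 11812 genes no longer than the 14 shortest members (45.1% negative). With the trend with length removed in each library, the medians of the 14 longest and the 14 shortest members were −0.02 and −0.01. In that fit 0 members passed after adjustment, against 0.376% of all tested genes. At an unadjusted p under 0.05, 6 of the 44 members were lower, against 1551 of the 19141 tested genes (8.1%). Of the 44, 3 were higher (Kif21b, Kif5c and Dync1li2, with 8.45% of all tested genes higher). Kif1a stood at −0.20 (adjusted p = 0.0888), Dync1h1 at −0.13 (0.193), Kif5a at −0.07 (0.337), Kif21a at −0.05 (0.449), and Kif19a, one of the 16 of middle length, at −0.38 (0.0793). Dctn3, the shortest tested member, stood at 0.06 (0.529).

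**Figure D4:**
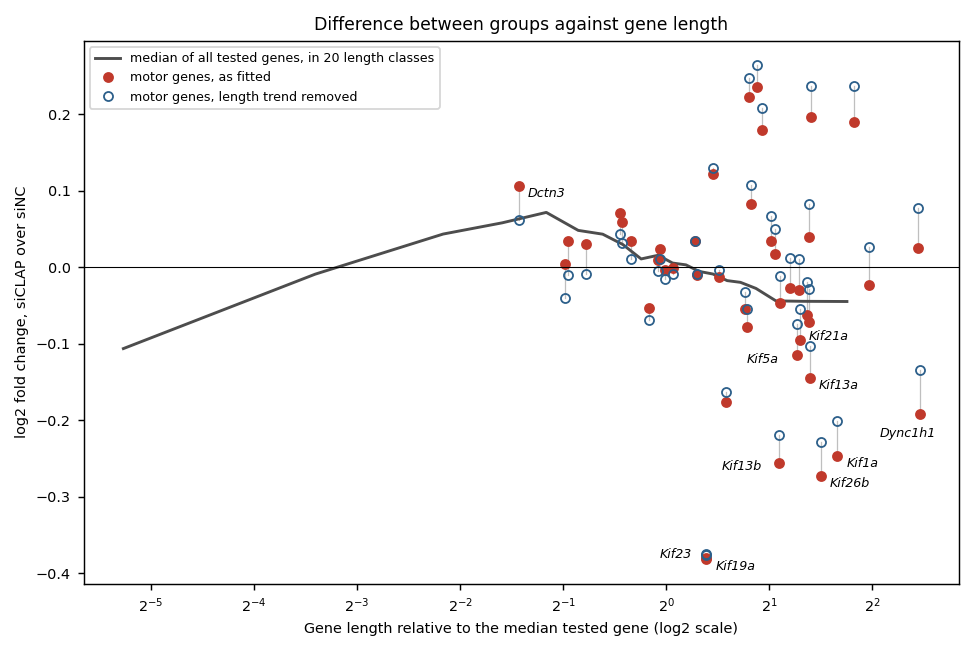
Log2 fold change of siCLAP over siNC against gene length relative to the median tested gene (log2 scale) for the 44 members as fitted (red) and with the length trend removed (blue, open), with the median of all tested genes in 20 length classes (line). The members with the smallest unadjusted p are named, and removing the trend moves Dync1h1 and Kif1a to −0.13 and −0.20 and leaves Kif19a at −0.38.

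Genes that work with the motors were taken from lists of adaptors, regulators, light chains and tracks. Of 73 tested companions 0 passed, and the median was 0.02. At an unadjusted p under 0.05, 8 were higher (10.96%) and 5 lower (6.849%), against 8.22% and 8.75% of all tested genes, so both shares lay near those of all genes. In the list of kinesin adaptors and cargo linkers (21 genes, 3 lower and 0 higher), the smallest p belonged to Plekhm2, an adaptor between lysosomes and kinesin-1, at −0.18 ± 0.05 (adjusted p = 0.114), and Htt, huntingtin, at −0.14 ± 0.05 (adjusted p = 0.196). In the list of dynein regulators and adaptors (11 tested, 1 lower and 1 higher), Bicd2, a dynein adaptor, stood at −0.19 ± 0.06 (adjusted p = 0.163), and Ndel1, a regulator of dynein, at 0.09 ± 0.04. The 6 genes of the dynactin filament had 2 higher, Capza1, which caps its actin-like filament, at 0.14 ± 0.05, and Actr10, an actin-related subunit of the pointed end, at 0.14 ± 0.06. None of the 8 tested dynein light chain genes had an unadjusted p under 0.05.

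Among genes of the microtubule tracks, 0 passed. Of 15 microtubule-associated proteins 4 were higher (26.67%) and 1 lower (6.667%) at an unadjusted p under 0.05, against 8.22% and 8.75% of all tested genes. The 4 higher ones were Stmn1, Stmn2, Stmn3 and Stmn4, the stathmin genes of the list. Mapt, which encodes tau, averaged 241 TPM in siCLAP and 278 TPM in siNC (−0.19 ± 0.05, adjusted p = 0.0930), and Stmn4, a stathmin that binds tubulin, 29.5 and 21.2 TPM (0.49 ± 0.13, adjusted p = 0.114). Of 12 tubulin genes 1 was higher (8.333%) and 0 lower, and their summed level was 16847 to 17208 TPM in siCLAP and 16536 to 17021 TPM in siNC. In 3 of the 12 (25%) every siCLAP library lay below every siNC library, against 12.2% of all tested genes. In 0 of them every siCLAP library lay above, against 9.39%.

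The tissue label was checked against markers. The sensory neuron list (8 genes, 0 passing) had a median of 0.10, with summed levels of 13743 to 14046 TPM in siCLAP and 13000 to 13294 TPM in siNC. Its genes did not share a direction, with 6 positive and 2 negative estimates. At an unadjusted p under 0.05, 4 were higher and 1 lower. Avil was the lower one, at −0.14 ± 0.05 (adjusted p = 0.163), and its groups did not overlap. In the list of non-peptidergic nociceptors, small-diameter pain and itch neurons, 4 of 6 genes passed as lower (Mrgprd, Scn11a, Plxnc1 and Gfra2). All 6 were lower at an unadjusted p under 0.05, against 8.75% of all tested genes. In all 6 every siCLAP library lay below every siNC library, against 12.2% of all tested genes. The sums were 971 to 1035 TPM in siCLAP and 1209.8 to 1298 TPM in siNC. The myelinated neuron list had 1 of 6 genes that rose (Pvalb), with sums of 4794 to 5364 TPM in siCLAP and 4438 to 5258 TPM in siNC. Its estimates were positive for 5 genes and negative for 1, with 3 higher and 0 lower at an unadjusted p under 0.05. In myelinating Schwann cells 1 of 6 genes fell (Egr2, sums 3227 to 3530 TPM in siCLAP and 3238 to 4305 TPM in siNC). All 6 had a negative estimate, and 3 were lower at an unadjusted p under 0.05. In satellite glia 1 of 4 rose (Ednrb, sums 401 to 446 TPM in siCLAP and 344 to 365 TPM in siNC). The satellite glia genes did not share a direction, with 2 higher and 1 lower at an unadjusted p under 0.05. The lower one, Cdh19, stood at −0.18 ± 0.06 with no overlap between the groups (adjusted p = 0.184). Of the 6 tested leptomeningeal genes 0 passed, and 6 had a negative estimate, with a median of −0.82. Of these, 4 were lower at an unadjusted p under 0.05 and did not overlap between the groups. Ptgds had 13.5, 6.67 and 3.63 TPM in siCLAP, against 90.3, 19.3 and 91.7 TPM in siNC (−2.96, adjusted p = 0.0560), and Slc47a1 stood at −1.78 (adjusted p = 0.0756). The list summed to 128 to 142 TPM in siCLAP and 172 to 242 TPM in siNC, of which Cdh1 made up 117 to 126 TPM in siCLAP and 128 to 143 TPM in siNC. The 6 central glia genes summed to 5.45 to 9.82 TPM in siCLAP and 5.50 to 6.41 TPM in siNC, with 0 of 2 tested passing. Of the 4 motor neuron genes, 0 of 2 tested passed, and Isl2, which sensory neurons also express, made up nearly all of the sum, at 376 TPM in siCLAP and 389.6 TPM in siNC. The defining motor neuron genes Chat and Mnx1 averaged 0.0668 and 0.122 TPM in siCLAP and 0.0368 and 0.0355 TPM in siNC, and Slc5a7 1.46 and 1.39 TPM. In bulk tissue fewer cells of a type and less RNA per cell cannot be told apart, and the part of these shifts in the motor genes was not tested.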

How the data were processed

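Per the labels' protocols, total RNA of L4/5 DRG was taken with Trizol and made into libraries with the NEBNext Ultra RNA kit. The submitters' processing notes name FastQC 0.11.8, HISAT2 2.1.0, featureCounts 1.6.2 and mm10. Neither the annotation nor the treatment of reads that map to several places is given in the sources used here. For each library the authors deposited estimated counts per gene symbol, 66.54% of them whole (tolerance 1e-06), and TPM values.

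Counts were rounded and fitted over all 6 libraries with edgeR 4.0.16 (R 4.3.3, TMM scaling, quasi-likelihood test, no covariate). The 19141 genes with a mean of at least 1 TPM were tested, and p-values were adjusted over all of them (Benjamini-Hochberg). Each standard error is the size of the log2 fold change over the root of its F statistic. DESeq2 1.42.0 and limma 3.58.1 were among 18 alternatives, as were other filters and scalings, a length correction and leaving out each library. The one without both libraries high in interferon genes was chosen after seeing the data, as were the interferon list and the member ratios. Scripts were tested on simulated data.

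Levels in every library are given for the 10 members with the smallest p and for the 2 most abundant of each role. Every companion or marker gene that passed is named. In some of these lists, not all, genes among the 2 with the smallest p are named as well. Markers at low levels, Avil, Cdh1, Cdh19, Isl2, Stmn1, Stmn2, Stmn3 and Kif14 were named after their values were seen. Members and lists were chosen with earlier results of these data known. No 2 libraries of a group agreed within counting noise, so none was merged, which does not show that they are separate animals. Exonic overlaps and loci come from GENCODE M21. A count floor covers counting error only.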

Additional observations from a re-analysis of the deposited data

How the results depend on the processing

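The number of genes called over the whole table depended on the test and filter. Against 56 genes and 0 of 44 members in edgeR's test, no TPM filter gave 835 genes and 5 members, DESeq2 611 and 3, and a mean of at least 5 TPM 118 and 0. limma called 0 genes on log2(TPM + 0.5) and 0 on log2(TPM + 0.1), with 3028 and 3017 genes at an unadjusted p under 0.05. Fitted to the counts by its voom method, limma called 60 genes and 0 members. The fit with the replicate number as a block called 203 genes and 1 member (Kif1a, adjusted p = 0.0397). Same-numbered libraries correlated at −0.0649 to 0.125 in their deviations, so the numbers were not taken to pair the samples. Leaving out 1 library gave 0 genes (without siCLAP-1, 1956 at an unadjusted p under 0.05) to 336 (without siCLAP-3), and 0 to 1 member. The other counts were 43 without siCLAP-2, 39 without siNC-1, 157 without siNC-2 and 4 without siNC-3. Without both siCLAP-2 and siNC-3, 13 genes and 0 members passed. The members' median of −0.00216 was −0.0200 with at least 5 TPM, −0.0162 and −0.0170 with limma at the larger and smaller pseudocount, and −0.0154 to 0.00775 with 1 library left out. The median over all tested genes, −0.00178 in edgeR's test, was −0.000177 with at least 5 TPM. With limma at those pseudocounts it was −0.0172 and −0.0177. Of the 21 members given by library, 16 kept their sign under all 18 alternatives, and 5 with estimates near 0 turned. Dync2li1 (0.00436) was −0.00248 with at least 5 TPM, −0.0135 and −0.0138 with limma at those pseudocounts, −0.0400 with the length trend removed, −0.0322 without siCLAP-2 and siNC-3, and −0.0530 to 0.0468 with 1 library left out. Kif1bp (0.00941) was −0.00677 and −0.00679 with limma at those pseudocounts, −0.00413 with the length trend removed, and −0.000573 to 0.0168 with 1 library left out. Kif1b was 0.0267 with the length trend removed, and −0.0506 to 0.0131 with 1 library left out. On leaving out 1 library Kif22 ranged between −0.0498 and 0.108, and Kif3a between −5.88e-05 and 0.0377. The cause of these changes was not tested. The 12 members under 1 TPM had 85 expected counts or fewer in every library.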
